A study of Mus musculus with 28 samples.

Results

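Anoctamins are membrane proteins with a shared fold, and many of them respond to calcium. Some of them are calcium-activated chloride channels, and others are scramblases, which move phospholipids such as phosphatidylserine between the leaflets of a membrane. Exposed phosphatidylserine is a well known surface mark of dying cells. Mammals carry a small family of these genes. Here Ano3 and 8 relatives (Ano1, Ano2, Ano4, Ano5, Ano6, Ano8, Ano9 and Ano10) were followed in mouse ovaries after ionizing radiation (IR). They are 9 of the 44674 genes in the bulk table and 9 of the 31053 genes in the single-cell tables. The set was chosen from the bulk irradiation contrasts, because Ano3 rose after IR in both genotypes, so the values of Ano3 in the irradiation contrasts are given as a description, with no test. Ano7, the remaining mouse anoctamin, was not a member, and its values are given once.

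The study asked which transcripts respond to a dose of IR that is lethal to oocytes, and which of these responses need checkpoint kinase 2 (CHEK2), a kinase of the DNA damage response. Bulk RNA-seq was made from paired ovaries of females 7 to 9 days old, with 6 libraries in each of 4 groups. The groups were wild-type (C57BL/6J) and Chek2-/- (Chek2tm1b(EUCOMM)Hmgu) females that received 0.5 Gy of gamma rays to the whole body or 0 Gy, and ovaries were collected 6 h later. Single-cell RNA-seq covered the same 4 conditions at 7 days of age, with the ovaries of 4 females pooled into 1 library per condition. The Chek2 allele is constitutive and so not limited to oocytes.

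Bulk libraries held 17825167 to 32605747 estimated counts. Chek2 itself lay between 18.5 and 24.6 counts per 1000000 (CPM) in all wild-type libraries and between 2.88 and 4.53 CPM in all Chek2-/- libraries, so no library went against its label. Summed over 8 oocyte markers, the level ran from 2039 to 2499 CPM in non-irradiated wild-type and from 1991 to 2363 CPM in irradiated wild-type ovaries. The Chek2-/- libraries numbered 6 stood apart in both conditions, with oocyte marker sums of 1058 and 1188 CPM and the lowest granulosa marker sums. In bulk tissue, fewer cells of a type and less RNA per cell cannot be told apart.

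Ano3 encodes an anoctamin that is best known from brain, where changes in the human gene cause a form of dystonia. The gene (ENSMUSG00000074968) spans chr2:110655201-110950923 on the minus strand of GRCm38. Because Ano3 was the member that moved, the bases before its annotated starts are shown. RefSeq promoter windows (GRCm38.p6) matched 7 of the 9 members, in 10 windows, and Ano3 had 2 of them. Each stretch is the 250 bases before a start, read 5′ to 3′ on the minus strand, and capitals mark the only TATAAA in either.
Ano3 upstream start, chr2:110950245-110950494: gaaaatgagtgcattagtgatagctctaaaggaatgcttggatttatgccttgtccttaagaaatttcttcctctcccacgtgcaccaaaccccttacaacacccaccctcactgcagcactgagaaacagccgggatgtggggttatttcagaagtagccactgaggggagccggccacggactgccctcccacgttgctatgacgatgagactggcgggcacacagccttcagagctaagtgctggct
Ano3 downstream start, chr2:110840060-110840309: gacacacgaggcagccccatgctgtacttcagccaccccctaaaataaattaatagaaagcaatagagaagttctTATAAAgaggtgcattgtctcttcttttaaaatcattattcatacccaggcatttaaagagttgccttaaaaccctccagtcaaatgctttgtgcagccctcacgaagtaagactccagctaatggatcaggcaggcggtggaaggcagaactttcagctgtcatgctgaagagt

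The first window held 7 CpG dinucleotides and a GC content of 52.4%, and the first bases transcribed from it were found in 2 annotated transcripts. The second held 3 CpG and 43.6% GC, its first transcribed bases were in 0 annotated transcripts, and its TATAAA began 175 bases before the start. The median over 32851 windows of the same length was 6 CpG. Among the other members, the windows held 22 CpG for Ano6, 17 for Ano10, 16 for Ano1, 13 for Ano5 and 2 for Ano4, and the 3 Ano2 windows held 12, 8 and 4. TATAAA, searched on both strands, was in 1 of the 10 member windows and in 12.4% of all windows. The half-site of the p53 family, searched by its name's usual degenerate pattern, which reads alike on both strands, was in neither Ano3 window. It occurred in 1 Ano2 window and in the Ano6 window, or 2 of the 10 member windows, and in 7.13% of all windows. A match is a description of letters and not a bound site, and no match says nothing of the factor.

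Ano3 was close to absent from non-irradiated ovaries. In the 6 non-irradiated wild-type libraries its estimated count was 1 at the lowest, 2.5 at the median and 5 at the highest. In irradiated wild-type libraries the lowest was 101, the median 126.5 and the highest 173. Every irradiated wild-type library was therefore far above every non-irradiated one. In CPM, the mean rose from 0.109 ± 0.0404 (SD, n = 6) to 5.55 ± 0.776 (SD, n = 6). The fitted log2 fold change was 5.56 (SE 0.224), or 47.3-fold. Of all 26790 genes tested, 2.41% were called in this contrast and 2.56% had groups that did not overlap.

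In Chek2-/- ovaries the same gene moved much less. Its estimated count was 1 at the lowest, 2 at the median and 4 at the highest in non-irradiated libraries. After IR it was 7 at the lowest, 8.5 at the median and 13 at the highest, so these groups did not overlap either. The mean went from 0.0867 ± 0.0369 CPM to 0.332 ± 0.0745 CPM (SD, n = 6 each), which is 1.87 on the log2 scale (SE 0.252), or 3.66-fold. Only 0.0112% of genes, 3 in number, were called in this contrast, and 0.149% had groups that did not overlap. The lowest irradiated wild-type library, at 4.40 CPM, was above the highest irradiated Chek2-/- library, at 0.472 CPM. The log2 fold change of Ano3 was smaller in Chek2-/- than in wild-type ovaries by 3.69 (interaction -3.69, SE 0.376), in a contrast in which 1.03% of genes were called. These values chose the gene and carry no test, and their SEs may understate counting error at the low non-irradiated counts.

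**Figure D1:**
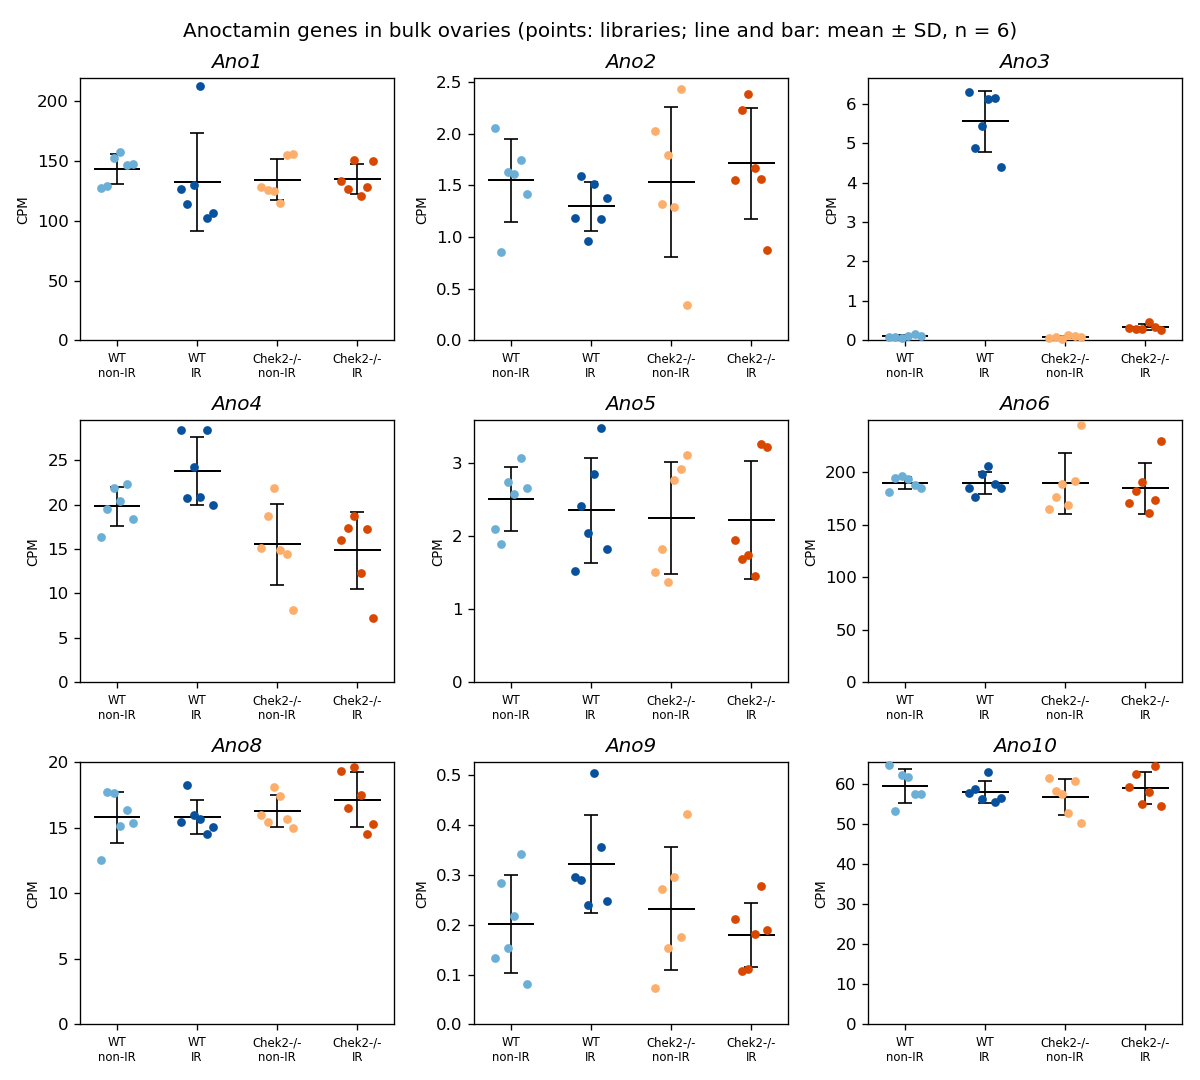
Level of each anoctamin in the bulk libraries, in CPM on a linear axis that starts at 0, for the 4 groups. Points are libraries, horizontal lines are group means and error bars are 1 SD (n = 6). Ano3 sits near 0 in non-irradiated ovaries, between 4.40 and 6.31 CPM in irradiated wild-type ovaries and between 0.265 and 0.472 CPM in irradiated Chek2-/- ovaries, while for the other 8 genes irradiated and non-irradiated libraries of each genotype overlap.

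What the rule did not use was the comparison of the genotypes without IR. The libraries of that comparison were the baselines of both irradiation contrasts, which chose Ano3, so this test is not independent of the choice. In it Ano3 was not called by edgeR's quasi-likelihood test (adjusted p = 0.732). The log2 fold change was -0.35 in Chek2-/- relative to wild-type (SE 0.295). The 95% interval of that difference ran from -0.93 to 0.23. It is too narrow, since the unadjusted p of 0.459 by edgeR is larger than this SE implies. At 1 to 5 counts per library a difference of this size was not detectable. Exons of Muc15, a mucin gene on the opposite strand, overlap those of Ano3. Muc15 had 20 counts over all 24 libraries and at most 0.224 CPM in any of them. No source used here says whether counting used strand, so reads from the shared exons cannot be told apart.

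The other 8 members differ widely in level. Per kilobase of exon, in non-irradiated wild-type ovaries, Ano1 was highest at 23.0 ± 2.00 CPM per kb, followed by Ano6 at 15.5 ± 0.481 and Ano10 at 10.0 ± 0.706 (SD, n = 6 each). Ano4 at 2.72 ± 0.306 and Ano8 at 2.31 ± 0.283 CPM per kb came next, and their libraries overlapped. Ano5 at 0.321 ± 0.0557 and Ano2 at 0.288 ± 0.0746 CPM per kb overlapped as well. Ano9 at 0.0458 ± 0.0223 and Ano3 at 0.0150 ± 0.00560 CPM per kb were last, again with overlapping libraries. After IR, Ano3 in wild-type ovaries reached 0.769 ± 0.108 CPM per kb, above Ano5 and Ano2 and below Ano8 and Ano4. In Chek2-/- ovaries it went from 0.0120 ± 0.00511 CPM per kb without IR to 0.0459 ± 0.0103 with IR. The latter was beside Ano9 at 0.0409 ± 0.0146 in the same irradiated group.

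The 8 other members gave no call after IR in wild-type ovaries. By edgeR's quasi-likelihood test 0 of 8 were called at an adjusted p of at most 0.05, against 2.41% of all genes. None of the 8 had an unadjusted p under 0.05 by edgeR, against 3059 of 26790 genes, and DESeq2 and limma-voom also called 0. Their median log2 fold change was -0.019, against -0.004 over all genes tested.

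The chloride channels Ano1 and Ano2 come first. Ano1 (ENSMUSG00000031075, chr7:144588549-144751974, minus strand) is the calcium-activated chloride channel of epithelia, smooth muscle and pacemaker cells. In non-irradiated wild-type libraries it was 127 CPM at the lowest, 147 at the median and 158 at the highest. In irradiated ones it was 102 at the lowest, 120 at the median and 213 at the highest, with -0.12 as the log2 fold change (SE 0.129, adjusted p = 0.852 by edgeR). The groups overlapped, and the 213 CPM came from a single library. Ano2 (ENSMUSG00000038115, chr6:125690419-126040126, plus strand), the chloride channel of olfactory neurons, lay between 0.854 and 2.06 CPM without IR and between 0.961 and 1.59 CPM with IR in wild-type libraries. Its change of -0.26 on the log2 scale had an SE of 0.303 and an adjusted p of 0.867 by edgeR.

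Ano6 (ENSMUSG00000064210, chr15:95790843-95974751, plus strand) is the scramblase that exposes phosphatidylserine on activated platelets. It was nearly level across the groups. Non-irradiated wild-type libraries lay between 181 and 196 CPM and irradiated ones between 176 and 206 CPM. The means were 190 ± 5.90 and 190 ± 10.6 CPM (SD, n = 6 each), and the 95% interval of the log2 fold change ran from -0.16 to 0.16. Exons of A130051J06Rik overlap those of Ano6, and that gene had 1.53 to 3.79 CPM. Ano10 (ENSMUSG00000037949, chr9:122175874-122294423, minus strand), whose loss causes a cerebellar ataxia in people, was similar. It had 59.4 ± 4.18 CPM before and 57.8 ± 2.77 CPM after IR in wild-type ovaries, with an interval from -0.15 to 0.07 on the log2 scale.

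Ano4 (ENSMUSG00000035189, chr10:88948994-89344762, minus strand) gave no call in any comparison. Wild-type libraries ran from 16.3 to 22.3 CPM without IR and from 19.98 to 28.4 CPM with IR, and overlapped. Their difference was 0.26 on the log2 scale, with an SE of 0.191 and an adjusted p of 0.710 by edgeR. Chek2-/- libraries ran from 8.18 to 21.8 CPM without IR and from 7.28 to 18.8 CPM with IR. The lowest library of each Chek2-/- group was the one numbered 6. Ano8 (ENSMUSG00000034863, chr8:71476019-71485963, minus strand), which tethers the endoplasmic reticulum to the plasma membrane, stayed between means of 15.8 and 17.1 CPM in the 4 groups. Exons of Dda1 overlap those of Ano8, and Dda1 was higher, at 37.8 to 52.1 CPM.

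Ano5 and Ano9 were low. Ano5 (ENSMUSG00000055489, chr7:51511029-51598709, plus strand), which is mutated in a limb-girdle muscular dystrophy, had group means between 2.22 and 2.51 CPM. Ano9 (ENSMUSG00000054662, chr7:141101212-141117806, minus strand) had 2 to 10 counts per library in non-irradiated and 6 to 10 in irradiated wild-type ovaries. Its log2 fold change in wild-type ovaries was 0.63 (SE 0.366), with an unadjusted p of 0.0987 and an edgeR adjusted p of 0.578. In Chek2-/- ovaries it was -0.35 (SE 0.370), and the interaction of -0.98 (SE 0.521) had an unadjusted p of 0.0724 and an edgeR adjusted p of 0.615. At these counts the 95% interval of the wild-type change reached from -0.09 to 1.35.

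**Figure D2:**
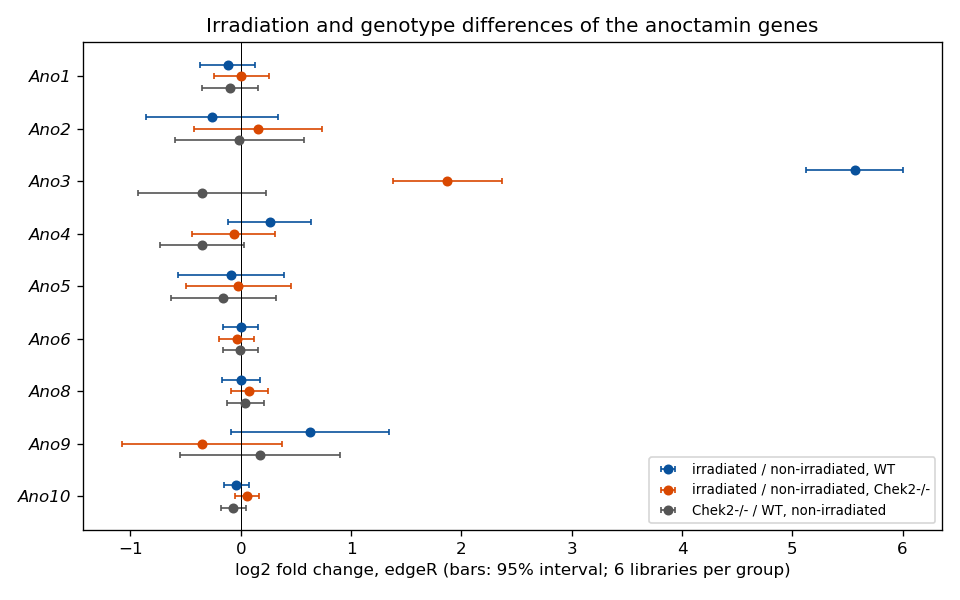
Log2 fold change (horizontal axis) of each anoctamin after IR in wild-type and Chek2-/- ovaries and between the non-irradiated genotypes, with 95% intervals as bars (n = 6 per group). The bars of Ano3 may understate counting error. Ano3 stands at 5.56 in wild-type and 1.87 in Chek2-/- ovaries after IR (values that chose the gene), and the intervals of the other 8 members include 0 in each comparison plotted.

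In Chek2-/- ovaries after IR, edgeR again called 0 of the 8 other members, against 0.0112% of all genes. None of the 8 had an unadjusted p under 0.05, against 1179 of 26790 genes. For the interaction of genotype and IR, 0 of the 8 were called, against 1.03% of genes. Again none had an unadjusted p under 0.05, against 2449 of 26790 genes. DESeq2 and limma-voom called 0 of 8 in both. The median log2 fold change of the 8 was -0.008 in Chek2-/- ovaries, against 0 over all genes, and their median interaction was 0.072 against 0.005.

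The comparison of the non-irradiated genotypes shares its libraries with both irradiation contrasts, so for Ano3 it is not independent of the rule. In it, edgeR called 0 of the 9 members, against 5.34% of genes, and DESeq2 and limma-voom called 0. None of the 9 had an unadjusted p under 0.05 by edgeR, against 5776 of 26790 genes. The median log2 fold change was -0.067, against 0.010 over all genes. Ano4 had the smallest p. Its mean was 19.8 ± 2.22 CPM in wild-type and 15.5 ± 4.59 CPM in Chek2-/- ovaries (SD, n = 6 each), which is -0.35 on the log2 scale (SE 0.192, unadjusted p = 0.0801, adjusted p = 0.301 by edgeR). Without both Chek2-/- libraries numbered 6, a choice made after seeing the data, the difference was -0.22 and was not called. Those libraries also held the lowest granulosa marker sums, at 655 and 649 CPM, and the part of this in the Ano4 level was not tested. Ano7 was not called in any comparison, at 0.204, 0.211, 0.238 and 0.260 CPM on average in non-irradiated wild-type, irradiated wild-type, non-irradiated Chek2-/- and irradiated Chek2-/- ovaries.

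The genes whose profile over the 24 bulk libraries lay nearest to that of Ano3 were found by the root mean square difference of standardised log2 CPM, among 26789 genes. In order they were Ccng1 at 0.164 SD, Eda2r at 0.185, Exoc4 at 0.227, Inka2 at 0.257, Bbc3 at 0.258, Fam83b at 0.268, Phlda3 at 0.276 and Mdm2 at 0.278 SD. Each of them was high in irradiated wild-type ovaries. Ccng1 averaged 39.7, 162, 41.5 and 61.1 CPM in non-irradiated wild-type, irradiated wild-type, non-irradiated Chek2-/- and irradiated Chek2-/- ovaries. Fam83b, the nearest of them to Ano3 in size of change in wild-type ovaries, averaged 0.860, 8.57, 0.908 and 1.12 CPM in the same order. The log2 fold changes of the 8 genes were between 1.21 and 3.30 in wild-type and between 0.02 and 0.56 in Chek2-/- ovaries, all below those of Ano3. No other anoctamin was near. Ano9 ranked 1169 with a difference of 1.01 SD, Ano4 ranked 1285 with 1.03 SD, and Ano1 ranked 19405 with 1.51 SD. The measure uses the same libraries that chose Ano3, so it is a description.

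Related groups of genes were read in the same fit. Among the TMC and TMEM63 proteins, structural relatives of the anoctamins, all 11 were tested, and Tmc3 alone was called after IR in wild-type ovaries, where 2.41% of all genes were. Its mean of 10.5 CPM became 14.2 CPM, or 0.43 on the log2 scale (SE 0.113, adjusted p = 0.0384 by edgeR). It lost its call in 9 of 31 alternative settings, among them limma-voom, the replicate block and 7 settings without 1 wild-type library, and its adjusted p ran from 0.00809 to 0.0969 over the 31. None of the 11 was called in Chek2-/- ovaries, in the interaction or between the non-irradiated genotypes.

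Among 34 other chloride channel genes, 32 were tested and 1 rose after IR in wild-type ovaries, which was Clca2, a modulator of chloride conductance in epithelia. A single call among 32 is near the 2.41% called over all genes. Clca2 lay between 1.37 and 2.09 CPM in non-irradiated and between 4.83 and 6.95 CPM in irradiated wild-type libraries, so the groups did not overlap. The change was 1.69 on the log2 scale (SE 0.232, adjusted p = 3.28e-05 by edgeR). In Chek2-/- libraries it ran from 1.38 to 3.84 CPM without IR and from 1.23 to 3.22 CPM with IR. The difference between genotypes was itself called, at -1.70 (SE 0.326, adjusted p = 0.00525 by edgeR).

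The same 32 chloride channel genes were read between the non-irradiated genotypes, where 5.34% of all genes were called. There Clca3a1 was higher in Chek2-/- ovaries by 0.53 (adjusted p = 0.0200 by edgeR) on the log2 scale. Ttyh3 was lower, at -0.37 (adjusted p = 0.00148 by edgeR).

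Among 20 other scramblases and flippases, 19 were tested and none was called after IR in either genotype or in the interaction. Between the non-irradiated genotypes, where 5.34% of all genes were called, 3 were higher and 2 lower in Chek2-/- ovaries. Those higher were the flippase Atp11b at 0.22 (edgeR adjusted p = 0.0355), its partner subunit Tmem30a at 0.33 (edgeR adjusted p = 0.0141) and the scramblase Vmp1 at 0.43 (edgeR adjusted p = 0.0233) on the log2 scale. Those lower were Bsg, a partner of the scramblase Xkr8 and of lactate transporters, at -0.19 (edgeR adjusted p = 0.0122) and the autophagy scramblase Atg9a at -0.20 (edgeR adjusted p = 0.0160). Atp11b lost its call in 6 of 31 alternative settings and Vmp1 in 3, each time when 1 non-irradiated library was left out, with adjusted p up to 0.0858 and 0.0655. Clca3a1 lost its call in 1, without the non-irradiated wild-type library numbered 4 (edgeR adjusted p = 0.0501, and 0.00265 at the lowest over the alternatives). Some cell markers were called in the same contrast. Of 6 fibroblast markers 2 were called lower in Chek2-/- ovaries, and their sum lay between 2493 and 3381 CPM in wild-type and between 1959 and 2381 CPM in Chek2-/- libraries. The sum of 6 granulosa markers, none of them called, lay between 1152 and 1532 CPM in wild-type and between 655 and 1179 CPM in Chek2-/- libraries. The sum of 5 erythroid markers, none of them called, overlapped between the genotypes. It lay between 222 and 926 CPM (median 462) in wild-type and between 198 and 10430 CPM (median 641) in Chek2-/- libraries. Called higher were 2 of 3 markers of quiescent granulosa cells. So was 1 of 5 each for steroidogenic cells, for oviduct and uterine epithelium and for primordial-type oocytes. Called lower were 2 of 6 pericyte markers and 1 of 8 markers of growing oocytes. The part of tissue makeup in these calls was not tested, and no group was tested as a set.

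The single-cell libraries show which cells carried each member. After filters and removal of doublets, 36524 cells were kept, 9277, 9779, 8697 and 8771 in the non-irradiated wild-type, irradiated wild-type, non-irradiated Chek2-/- and irradiated Chek2-/- library. Clusters were named only by analogy to fixed markers, and the anoctamins took no part in the clustering. With 1 library per condition no difference between conditions was tested, and the 95% intervals below cover counting error only. The libraries shared 30 to 73 barcodes in pairs, with the most between the wild-type libraries. The part of molecules crossing between libraries in the low Ano3 counts below was not tested. Oocyte-like cells were 196, 171, 75 and 141 in the order above, and their median depth was 14183 unique molecular identifiers (UMIs) in the irradiated wild-type library against 119441 to 181498 in the other 3.

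Ano3 was higher in the main somatic classes of the irradiated wild-type library than of the non-irradiated one. In 3496 granulosa-like cells of that library it had 444 UMIs, or 5.82 UMI CPM, that is, UMIs of the gene per 1000000 UMIs of the class (5.29 to 6.39). In 2925 granulosa-like cells of the non-irradiated wild-type library it had 9 UMIs, or 0.125 UMI CPM (0.0573 to 0.238). The ratio was 46.5 (24.3 to 102). In fibroblast-like cells it went from 7 UMIs and 0.104 UMI CPM to 293 UMIs and 4.37 UMI CPM (3.89 to 4.90), a ratio of 42.0 (20.1 to 105.3).

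Smaller classes showed the same direction where Ano3 was detected at all. Perivascular smooth muscle-like cells went from 1 UMI to 18 UMIs, or 5.39 UMI CPM (3.20 to 8.52), a ratio of 21.6 (3.40 to 898). Endothelial-like cells went from 0 to 20 UMIs, or 4.35 UMI CPM (2.66 to 6.72), which is 5.64 times the limit of 3 UMIs in the non-irradiated class. Epithelial-like cells went from 0 to 19 UMIs, or 1.86 UMI CPM (1.12 to 2.91), which is 3.998 times that limit. Both values over the limit leave out the counting error of the irradiated level, so they are not lower bounds of the change. Erythroid-like cells held 5 UMIs in 44 cells of the irradiated wild-type library and 0 in each of the other 3.

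Pericyte-like and macrophage-like cells gave no Ano3 UMI in any library. In the irradiated wild-type library this was 0 of 145 pericyte-like cells, which allows a share of cells with a UMI of up to 2.07%, and 0 of 54 macrophage-like cells, which allows up to 5.56%. These are limits on cells with a UMI at this depth and not on cells that express the gene. In level, the limits were 2.36 and 4.33 UMI CPM. For pericyte-like cells the limit lies below the level in granulosa-like, fibroblast-like, endothelial-like and perivascular smooth muscle-like cells. For macrophage-like cells the depth does not separate them from fibroblast-like cells.

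Oocyte-like cells carried little Ano3. They held 2 UMIs in the non-irradiated wild-type library, or 0.0691 UMI CPM (0.00837 to 0.250), and 7 UMIs in the irradiated one, or 0.523 UMI CPM (0.210 to 1.08), a ratio of 7.57 (1.44 to 74.7). When oocyte-like cells were clustered again, 3 of the 7 UMIs lay in sub-cluster 7, which held no non-irradiated cell. Only sub-cluster 3 had UMIs in both wild-type libraries, with a ratio of 6.89 (0.4995 to 95.07) that includes no change. The irradiated level was 8.99% of that in granulosa-like cells of the same library. Granulosa marker genes stood in the same oocyte-like cells at 4.91% of their level in granulosa-like cells, and Ano4 stood at 4.86%. The part of free or neighbouring RNA in these 7 UMIs was not tested.

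The same values were taken in the other classes. In the irradiated wild-type library, Ano3 in fibroblast-like cells was 75.1% of its granulosa-like level, where Ano4 was 4.25% and the granulosa marker sum 9.35%. In endothelial-like cells Ano3 was at 74.7%, Ano4 at 1.46% and the marker sum at 2.35%. In perivascular smooth muscle-like cells the values were 92.6%, 4.71% and 11.3%. In epithelial-like cells they were 32.0%, 11.7% and 24.6%, and in erythroid-like cells 111%, 43.5% and 65.7%. The fibroblast marker sum stood at 60.3% of its fibroblast-like level in perivascular smooth muscle-like cells, 3.15% in endothelial-like and 2.08% in granulosa-like cells. The part of free or neighbouring RNA in the Ano3 levels of these classes was not tested.

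**Figure D3:**
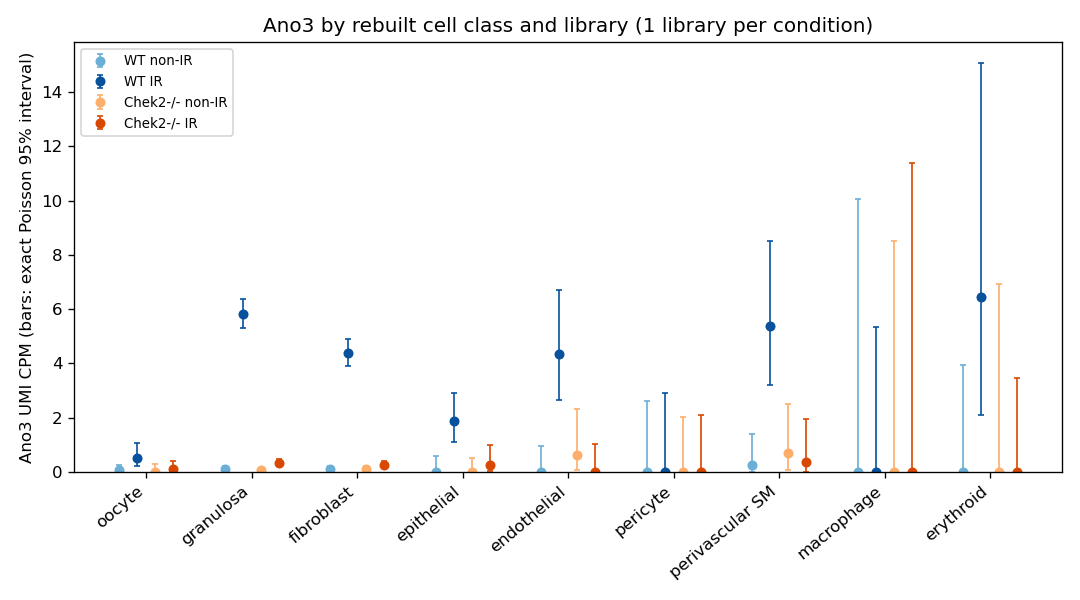
Ano3 in UMI CPM for each rebuilt cell class, with the 4 single-cell libraries as points and exact Poisson 95% intervals as bars (1 library per condition, linear axis from 0). The irradiated wild-type library lies above the other 3 in granulosa-like (5.82), fibroblast-like (4.37), endothelial-like (4.35) and perivascular smooth muscle-like cells (5.39), and oocyte-like cells lie at 0.523.

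Chek2-/- cells held few Ano3 UMIs with or without IR. In granulosa-like cells Ano3 went from 5 UMIs, or 0.0687 UMI CPM, to 29 UMIs, or 0.335 UMI CPM (0.224 to 0.481), a ratio of 4.88 (1.87 to 16.1). In irradiated granulosa-like cells, the Chek2-/- level was 0.0575 times the wild-type level (0.0381 to 0.0838). In fibroblast-like cells it went from 8 UMIs, or 0.121 UMI CPM, to 17 UMIs, or 0.243 UMI CPM (0.141 to 0.389), a ratio of 2.01 with an interval from 0.822 to 5.38 that includes no change. In oocyte-like and in epithelial-like cells it was 0 UMIs without IR and 2 with IR. Endothelial-like cells went the other way, from 2 UMIs to 0, as did perivascular smooth muscle-like cells, from 2 to 1, and these counts are too few to show a direction.

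The share of cells with an Ano3 UMI was low even where the level was high. In the irradiated wild-type library it was 9.38% of granulosa-like cells (Clopper-Pearson 8.44 to 10.4%; median depth 19401 UMIs) and 5.12% of fibroblast-like cells (4.52 to 5.78%; 11855 UMIs). In the pericyte-like class it was 0% at a median depth of 7911 UMIs. Thinned to 3000 UMIs per cell, the shares were 1.63% of granulosa-like and 1.16% of fibroblast-like cells, against 0.0343% and 0.0200% in the non-irradiated wild-type library. Of the oocyte-like cells of the irradiated wild-type library, 7 of 171 held a UMI, and 0 of the 120 that were deep enough for thinning did afterwards.

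Within the granulosa-like class of the irradiated wild-type library, Ano3 differed between clusters. Cluster 8, led by Akr1c18, Hsd3b1 and Sfrp4, had 12.9 UMI CPM (10.24 to 16.02), and cluster 1 had 8.14. When doublets were kept, or with at least 2000 genes per cell, a cluster of 1016 or 971 cells with nearly the same numbers per library as cluster 8 passed all 6 granulosa markers but could not be named, since its leading genes held a marker of another class and none of granulosa cells. Cluster 2 had 4.20, and cluster 0, led by Amh, Hsd17b1 and Inhbb, had 2.59 (1.92 to 3.42). Fibroblast-like clusters were closer together, with 6.17 in cluster 3, 3.85 in cluster 5, 3.77 in cluster 4 and 3.03 in cluster 6. In an unnamed cluster of 43 cells led by Fabp7, Sox10 and Foxd3, Ano3 had 2 UMIs in 17 cells of the non-irradiated wild-type library and 3 UMIs in 7 cells of the irradiated one.

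The other anoctamins had their own classes, which the rule did not use. Over all 4 libraries, Ano1 was highest in epithelial-like cells, at 298 UMI CPM (292 to 304), with libraries between 229 and 343. It followed in pericyte-like cells at 164, with libraries between 141 and 176, and in granulosa-like cells at 80.5, with libraries between 62.9 and 96.4. These 3 ranges do not overlap. Fibroblast-like cells had 12.2.

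Ano1 levels within a class also moved between libraries in both directions. In epithelial-like cells it was 310 UMI CPM in the non-irradiated and 229 in the irradiated wild-type library, a ratio of 0.738 (0.694 to 0.783), and 343 and 342 in the Chek2-/- libraries, a ratio of 0.997 (0.943 to 1.06). In granulosa-like cells the ratio of irradiated to non-irradiated was 1.26 (1.22 to 1.31) in wild-type and 0.708 (0.683 to 0.734) in Chek2-/- ovaries. Among granulosa-like clusters Ano1 was highest in cluster 2, which held 735 of 2925 and 1217 of 3496 granulosa-like cells in the non-irradiated and irradiated wild-type library, and 968 of 3129 and 705 of 3403 in the Chek2-/- libraries. Within cluster 2, Ano1 was 202 and 196 UMI CPM in the wild-type and 236 and 222 in the Chek2-/- libraries, against 29.9 to 54.9 in clusters 0 and 1 and 16.1 to 23.5 in cluster 8. The part of cluster makeup in the granulosa-like ratios was not tested. The epithelial-like class was cluster 11 alone, so these cluster values do not bear on its ratio. That cluster held 249, 388, 321 and 253 cells of the 4 libraries, non-irradiated before irradiated and wild-type before Chek2-/-. At Leiden resolution 1 the cluster named epithelial-like held 134, 245, 182 and 134 in the same order. A cluster of 1257 cells nearest to the epithelial list stayed unnamed there. The part of makeup within the epithelial-like class in its ratio was not tested. Each class ratio is a difference between 2 libraries, and Ano1 in bulk gave no call in either genotype.

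Ano4 was led by granulosa-like cells, at 47.1 UMI CPM (46.3 to 47.9) with libraries between 44.6 and 49.5. No library of any other class passed 19.4. Erythroid-like cells had 17.2, and the granulosa marker sum there stood at 38.6 to 65.7% of its granulosa-like level in the 4 libraries, with Amh and Hsd17b1 among the leading genes of that cluster. The part of granulosa RNA in this Ano4 level was not tested. Oocyte-like cells had 4.75 and fibroblast-like cells 1.81. In granulosa-like cells of the irradiated wild-type library, where Ano3 was at 5.82 UMI CPM, Ano4 was at 44.6. The ratio of Ano4 after IR was 0.901 (0.859 to 0.944) in wild-type and 1.03 (0.989 to 1.08) in Chek2-/- granulosa-like cells. The cluster makeup of this class differed between the libraries, as given for Ano1, and its part in these ratios was not tested.

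Ano2 and Ano10 were led by oocyte-like cells. Ano2 had 243 UMIs there over the 4 libraries, or 3.37 UMI CPM (2.96 to 3.82), with libraries between 2.54 and 3.58. Fibroblast-like cells had 0.433 and granulosa-like cells 0.205, and no library of any class but the oocyte-like one passed 1.06. Ano10 was at 58.0 UMI CPM (56.3 to 59.8) in oocyte-like cells, with libraries between 49.95 and 67.3. In the other classes it was between 9.36 and 24.7, and no library of another class passed 29.0. Ano10 in oocyte-like cells was 49.95 and 62.9 UMI CPM in the non-irradiated and irradiated wild-type library, a ratio of 1.26 (1.16 to 1.37), and 58.2 and 67.3 in the Chek2-/- libraries, a ratio of 1.16 (1.05 to 1.27). The oocyte-like cells of the irradiated wild-type library were the shallow ones named above, and 65 of the 171 lay in sub-cluster 7, which held no cell of another library. In sub-cluster 7, Ano10 was 69.0 UMI CPM (63.8 to 74.6). Within sub-clusters that both wild-type libraries shared, the ratio was 0.932 (0.732 to 1.19) in sub-cluster 0, 0.747 (0.528 to 1.03) in sub-cluster 3 and 1.08 (0.529 to 2.02) in sub-cluster 6. In sub-clusters 4 and 5, with 1 and 3 UMIs in the smaller library, it was 5.85 (0.147 to 33.2) and 2.59 (0.741 to 13.9). All 5 intervals include no change, but each sub-cluster holds fewer UMIs than the class, so they do not show that there was none. Between the Chek2-/- libraries the ratio was 1.07, 1.11, 1.17, 1.26, 1.16, 0.918 and 1.24 in sub-clusters 0 to 6. All 7 of these intervals include no change too, with the same limit, and all the ratios but that of sub-cluster 5 were above 1. The part of sub-cluster makeup in the class ratios was not tested.

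**Figure D4:**
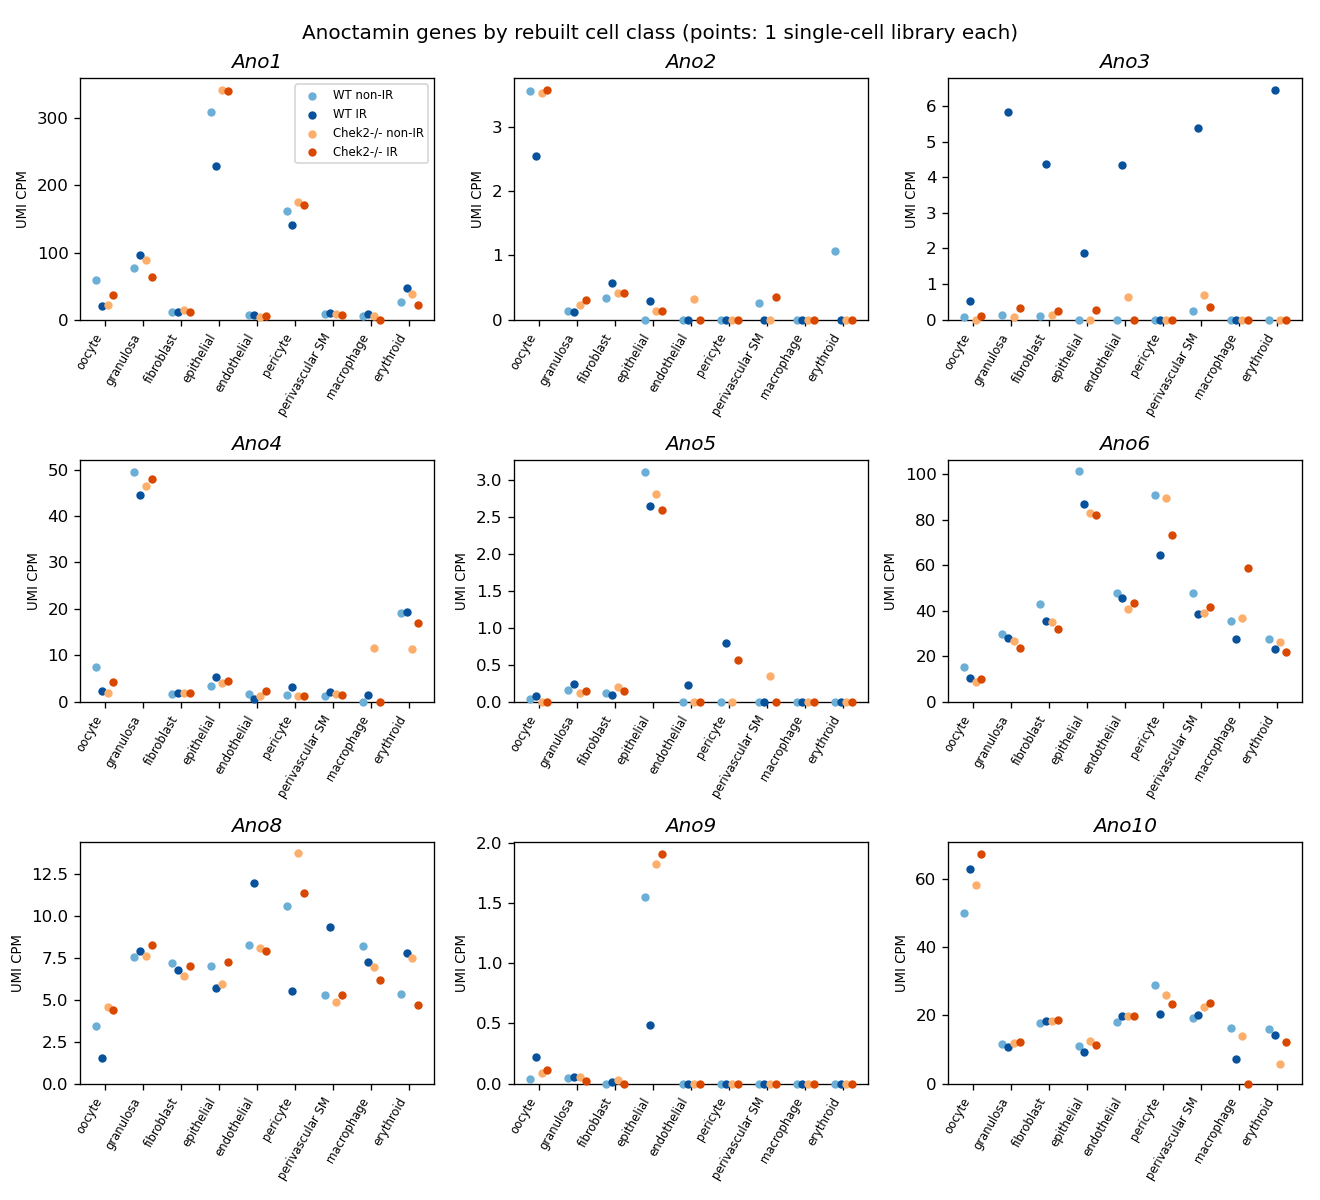
Levels of the anoctamin members, Ano3 among them, by rebuilt cell class, in UMI CPM on linear axes that start at 0, with the 4 single-cell libraries as points (1 library per condition). Ano2 and Ano10 are highest in oocyte-like cells (3.37 and 58.0 over all libraries), Ano4 in granulosa-like cells (47.1), and Ano1, Ano5 and Ano9 in epithelial-like cells (298, 2.76 and 1.35), while for Ano6 epithelial-like (87.9) and pericyte-like cells (80.2) overlap between libraries.

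Ano5 and Ano9 were led by epithelial-like cells. Ano5 had 86 UMIs there, or 2.76 UMI CPM (2.21 to 3.41), with libraries between 2.59 and 3.11, and at most 0.319 in any other class over all libraries. Ano9 had 42 UMIs there, or 1.35 UMI CPM (0.973 to 1.83), against 13 UMIs in granulosa-like, 7 in oocyte-like and 3 in fibroblast-like cells and 0 in the other 5 named classes. In the irradiated wild-type library the epithelial-like level of Ano9 was 0.490 UMI CPM from 5 UMIs, against 1.55 to 1.91 in the other 3 libraries, with a wild-type ratio of 0.316 (0.0846 to 1.01).

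Ano6 and Ano8 were found in every named class. Ano6 ran from 87.9 UMI CPM in epithelial-like and 80.2 in pericyte-like cells to 26.8 in granulosa-like and 12.0 in oocyte-like cells. Its libraries lay between 82.0 and 102 in epithelial-like and between 64.4 and 91.1 in pericyte-like cells, and these ranges overlap. In oocyte-like cells they lay between 8.76 and 15.4. Ano8 was flatter, from 10.7 in pericyte-like to 3.48 in oocyte-like cells.

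Within oocyte-like cells, Ano1 and Ano10 behaved differently. Of 8 sub-clusters, Ano1 was at 108 UMI CPM in sub-cluster 3, 55.1 in sub-cluster 1 and 53.3 in sub-cluster 6, and between 6.15 and 9.66 in the other 5. The granulosa marker sum was 612, 322 and 355 UMI CPM in sub-clusters 3, 1 and 6, and between 57.6 and 112 in the other 5, so it was high in the same sub-clusters as Ano1. Sub-cluster 6, which held 39 of the 171 oocyte-like cells of the irradiated wild-type library, also had a fibroblast marker sum of 966 UMI CPM, against 74.3 to 158 in the others, and Col1a1 and Pdgfra among its leading genes. The part of granulosa or fibroblast RNA in these Ano1 levels was not tested. Ano10 stayed between 48.6 and 69.0 in all 8 sub-clusters. Ano2 ran from 1.42 in sub-cluster 0 to 5.72 in sub-cluster 4. No change with IR was read from the Ano1 level of the whole oocyte-like class, which lay between 20.7 and 59.5 in the 4 libraries.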

How the data were processed

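Bulk and single-cell RNA-seq files were used as deposited. For bulk libraries the authors deposited estimated counts per gene, made by a workflow of Trim Galore 0.6.5, FastQC 0.11.9, Salmon 1.3.0 and MultiQC 1.9 per the labels. For these counts the study's methods name an Ensembl transcript release, while the labels name mm10. The annotation behind the bulk table was therefore not settled here. These were rounded to whole numbers. Single-cell files are UMI counts per gene and cell that the authors made with Cell Ranger on mm10 and deposited per library. Gene names matched 44118 bulk IDs in the reference and 34 more in the single-cell gene list, and positions are from its GRCm38 annotation.

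The 9 members, the related lists and the markers were chosen with earlier results of these data known. Bulk genes with at least 10 counts over the 24 libraries (26790 of 44674, all 9 members among them) were fitted with group means in edgeR 4.0.16 (TMM scaling, quasi-likelihood test, R 4.3.3), and p-values were adjusted over all 26790 by Benjamini-Hochberg. A call is an adjusted p of at most 0.05. Intervals of log2 fold changes are the estimate plus or minus the normal 95% multiple of the SE. The SE was calculated back from the fold change and the F statistic. At counts as low as those of Ano3 it can understate counting error. The labels do not name the animals behind each library, so p-values measure the spread between these libraries. Counts of replicate pairs differed by 5.85 to 55.3 times sampling noise (chi-square per degree of freedom), so none was taken as a duplicate. Alternatives were DESeq2 1.42.0, limma-voom 3.58.1, RLE scaling, other filters, a 2-fold minimum, a replicate block and each library left out. On counts simulated for irradiated against non-irradiated wild-type ovaries (26335 genes), the test called 80 of 107 genes changed 2-fold, 87 of 93 changed 4-fold and 8 of 26135 unchanged. The changed genes were drawn only from those above a minimum mean CPM. Ano9 and Ano7 lay below it, so these counts do not cover genes at their level.

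Cells with at least 1000 genes, at most 20% mitochondrial and at most 50% ribosomal UMIs were kept. Scrublet removed 4.02 to 5.47% of cells per library as doublets. Values were scaled to 10000 UMIs per cell and log-transformed, and 2000 variable genes, without the anoctamins and 82 radiation-responsive symbols, gave 30 components, 15 neighbours and Leiden clusters at resolution 0.5 (scanpy 1.11.5). A marker counted when at least 25% of a cluster's cells held it at 2-fold or more above the median of other clusters. A class needed at least 3 markers and 60% of its list. The cluster led by mast cell genes was kept unnamed after its values were seen, and classes here are rebuilt and can differ from the study's. Class levels are summed UMIs per 1000000 (UMI CPM) with exact Poisson intervals, limits at 0 use 3 UMIs, and shares have Clopper-Pearson intervals. Named genes were the members, Ano7, Chek2, called genes of the related lists, the 8 genes nearest to Ano3, genes that overlap a member and cell markers. Leading genes of clusters are given to identify them. One result among the related lists is not reported here.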

Additional observations from a re-analysis of the deposited data

Results flagged for a closer look

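Of 36 groups of 6 bulk libraries examined, 9 members in 4 groups, 2 had a library far from the others, and chance alone flags about 1 in 20 groups. Ano1 was 213 CPM in the irradiated wild-type library numbered 4, and the nearest other library of that group had 130 CPM, a gap of 0.746 of the group's whole range. That library also had the highest epithelial marker sum of its group, at 985.5 CPM against a group median of 623.4 CPM. Ano6 was 245 CPM in the non-irradiated Chek2-/- library numbered 6, and the nearest other library had 191 CPM, a gap of 0.67 of the range. The epithelial marker sum of that library was 1136 CPM, the highest of its group, and its oocyte marker sum of 1058 CPM was the lowest. The part of tissue makeup in either value was not tested. Neither gene was called in any comparison.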

How the results depend on the processing

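Ano3 was not counted in the irradiation and interaction comparisons, which chose it. Of the other 8 members there, and of all 9 between the non-irradiated genotypes, 0 were called under all 128 alternatives. The 2-fold minimum, counted among these, can only remove calls, so its result was fixed by the main fit. For Ano3, the alternatives gave log2 fold changes from 5.44 to 5.75 in wild-type and from 1.73 to 2.08 in Chek2-/- ovaries, an interaction from -3.88 to -3.50, and from -0.55 to -0.17 between the non-irradiated genotypes. Of 1112 alternative fold changes of members, 57 turned sign, in 14 of 36 fold changes, none of them called. Beside single libraries left out, these were Ano6 in wild-type ovaries with limma-voom at -0.001, Ano6 between genotypes with no filter beyond 1 count at 0, and, without both Chek2-/- libraries numbered 6, Ano2 at 0.19 and Ano9 at -0.076 between genotypes. Ano9 had no value under filterByExpr.

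When single libraries were left out, the log2 fold changes after IR in wild-type ovaries ran from -0.225 to 0.009 for Ano5, -0.021 to 0.031 for Ano6 and -0.048 to 0.042 for Ano8. In Chek2-/- ovaries they ran from -0.038 to 0.054 for Ano1, -0.053 to 0.333 for Ano2, -0.193 to 0.068 for Ano4, -0.166 to 0.091 for Ano5 and -0.116 to 0.053 for Ano6. The interaction ran from -0.088 to 0.198 for Ano5 and -0.131 to 0.048 for Ano6. Between genotypes they ran from -0.195 to 0.191 for Ano2, -0.091 to 0.036 for Ano6, -0.013 to 0.077 for Ano8 and -0.075 to 0.403 for Ano9. The cause was not tested.

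With the replicate block 0 of the members so counted were called in each comparison. Over all genes it called 661, 4, 281 and 2025, against 646, 3, 277 and 1430 without it, for wild-type IR, Chek2-/- IR, interaction and genotype. DESeq2 called 816, 14, 458 and 2507. Without both Chek2-/- libraries numbered 6 the counts were 1009, 3, 347 and 1877. Deviations of same-numbered libraries correlated between -0.194 and 0.657 over 36 pairs, 16 of them over 0.1, and a library correlated best with its own number in 22 of 72 cases. Between the Chek2-/- groups alone the same-numbered libraries correlated at 0.191, 0.058, 0.385, 0.378, 0.235 and 0.657 for numbers 1 to 6. Since not every pair was over 0.1, the numbers were not read as pairs. This rule cannot show that the numbers carry no pairing or shared batch, which was not tested.

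Of 243 alternative class levels (doublets kept, at least 2000 genes per cell, resolution 1), 23 moved beyond their counting interval. The counting intervals given for class levels therefore do not cover the choice of setting. The epithelial-like class, for example, held 1211 cells in the main setting and 1003, 894 and 695 in the alternatives, in that order. Ano3 at 1 to 5 counts in non-irradiated libraries, and Ano9 throughout, limit what bulk depth can show. With 1 single-cell library per condition, differences between conditions rest on counting error alone.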
